A study of Mus musculus with 12 samples.

Results

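The genes described here were 9 members of the S100 calcium-binding family: S100g, S100b, S100a1, S100a4, S100a6, S100a10, S100a11, S100a13 and S100a16. The list was written with results of these data in view, and the genes were found on the arrays through the RefSeq accession of each probe. S100g, also known by the older name Calb3, was chosen by its measured log2 difference under PP242, so its differences that involve PP242 are given as a description with no test. Each of the 9 had 1 probe and all 9 passed the filter on dim probes. They were 9 of 25579 entries tested on 12 arrays, called genes here. Of these, 15119 had a gene symbol. The rest stand under the sequence name of their probe, so a gene may be counted more than once.

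Cultures were of NIH3T3, a long-established line of mouse embryonic fibroblasts, with no genetic change named in the labels. All were kept for 18 h in 1 of 3 conditions with 4 arrays each: DMSO as solvent control, rapamycin at 50 nM, or PP242 at 2 µM (the treatment protocol writes 2 mM, the design text and sample characteristics µM). The series' design text describes the 4 as independent experiments; all come from 1 cell line. Rapamycin is an allosteric inhibitor of mTOR complex 1, and PP242 competes with ATP at the mTOR kinase of both mTOR complexes. Each compound was used at a single dose and the doses differ, so values under them stand side by side as treatments, not as a comparison of structures.

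S100 proteins are small calcium sensors built around a pair of EF-hand loops, and most work as dimers that change shape on binding calcium and then grip a partner protein. Members differ mainly in their partners: annexins for S100a10 and S100a11, non-muscle myosin for S100a4, the calcyclin-binding protein for S100a6. S100g, or calbindin-D9k, is the odd one out: a monomer that buffers and ferries calcium, best known from the absorptive cells of the gut, where vitamin D raises its mRNA.

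Levels are log2 processed intensities minus the 75th percentile of the same array, called scaled levels here. They compare arrays for 1 gene and not genes with each other, since probes differ in efficiency. On 8 arrays (DMSO 1, 3 and 4, rapamycin 1, 2 and 4, PP242 2 and 3) 55.7% to 60.4% of the probes were well above background by the scanner software's own call. On DMSO 2, rapamycin 3, PP242 1 and PP242 4 this share was 77.9% to 97.9%, and dim probes read higher there. PP242 against DMSO is therefore given over all 12 arrays and over the 8 for each of the 9 genes. Of 10 fibroblast markers, 9 were well above background on all 8 arrays, among them Col1a1, Vim and Pdgfra, while the epithelial genes Epcam, Cdh1 and Krt18 and the glial genes Gfap and Olig1 were so on 0 of the 8. Krt14 of the epithelial list and Mbp of the glial list were well above background on all 8 as well, and Krt5 on 7. The p-values measure the spread between these samples.

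The start of S100g is shown because this gene had the widest scaled range of the 9 over the 8 arrays, 11.6-fold from lowest to highest. The stretch is the 250 bases before its start, from RefSeq's mouse build GRCm38.p6, chrX:162964600-162964849 on the minus strand, with a forkhead core (GTAAACA) in capitals. It is followed by S100a16, whose mean also was higher under PP242, for its later annotated start (chr3:90540896-90541145, plus strand), and by S100a11, whose mean was nearly level (chr3:93520246-93520495, plus strand). In these, capitals mark AP-1 letters (TGANTCA) and an E-box (CACGTG).
S100g: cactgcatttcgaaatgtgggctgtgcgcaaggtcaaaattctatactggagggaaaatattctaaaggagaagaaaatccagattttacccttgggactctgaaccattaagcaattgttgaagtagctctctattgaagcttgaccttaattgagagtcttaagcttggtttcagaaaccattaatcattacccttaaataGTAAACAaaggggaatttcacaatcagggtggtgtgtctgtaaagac
S100a16: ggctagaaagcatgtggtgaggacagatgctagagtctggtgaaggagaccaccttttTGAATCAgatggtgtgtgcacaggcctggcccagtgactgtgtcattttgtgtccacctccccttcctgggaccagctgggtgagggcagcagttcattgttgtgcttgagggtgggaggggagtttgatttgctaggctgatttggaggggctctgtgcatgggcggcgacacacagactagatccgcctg
S100a11: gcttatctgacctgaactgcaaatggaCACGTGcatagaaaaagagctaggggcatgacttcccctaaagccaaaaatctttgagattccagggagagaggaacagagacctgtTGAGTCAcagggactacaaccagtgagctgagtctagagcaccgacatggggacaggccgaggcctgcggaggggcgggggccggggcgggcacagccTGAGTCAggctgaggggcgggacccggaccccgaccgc

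A search of 300 bases (250 before and 50 after the start, both strands) covered 8 of the 9 genes with 5 motifs. The S100g window held GTAAACA at position -47 (counting bases before the start as negative) and none of the other 4 motifs; 3.65% of 32851 promoters in the table hold these letters. The S100a11 window held CACGTG at -223 and TGANTCA at -136 and -38; 7.15% and 7.81% of all promoters hold these. S100a16 had TGANTCA at -192 from its later start and none of the 5 motifs around its earlier annotated start. S100a6 had CACGTG within the stretch after its start. The cAMP response element TGACGTCA (1.79% of promoters) and the ATF4 composite TGATGNAAT (0.965%) matched in none of the windows searched. S100g's 250 bases were 38.4% G or C, against a median of 52.4% over the table. These matches are letters in a window; binding was not measured.

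S100g was lowest in DMSO, intermediate in rapamycin and highest in PP242. Its scaled levels were -4.95, -4.39, -4.67 and -4.93 on DMSO arrays 1 to 4, -3.43, -3.67, -1.73 and -4.16 on rapamycin 1 to 4, and -1.46, -1.55, -1.41 and -1.88 on PP242 1 to 4. The 4 DMSO values lay below every rapamycin value, and every PP242 value lay above all DMSO values. Rapamycin and PP242 overlapped only through rapamycin 3, which is an array with raised dim probes. Before scaling, the intensity on the 8 arrays was 31.9 to 47.7 in DMSO, 89.1 to 121 in rapamycin and 350 to 596 in PP242, and the probe was well above background on all 12 arrays.

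Over the 8 arrays the S100g mean was 3.37 ± 0.22 (log2, SE) higher in PP242 (n = 2) than in DMSO (n = 3), or 10.3-fold. Against rapamycin (n = 3) the PP242 mean was 2.27 ± 0.22 higher, or 4.83-fold. With all 12 arrays the same differences were 3.16 ± 0.46 and 1.67 ± 0.46. Within the slide that held DMSO 1 and 4 and PP242 2, the difference to DMSO was 3.38. Over the 12 settings on the 8 arrays the difference to DMSO was 3.26 to 3.46. Over 12 arrays it was smaller under other processing: 2.31 after quantile normalisation, 2.27 with median centring, 2.075 with normexp and 1.16 on the deposited log2 table. The DMSO values were dim, so the size of the fold rests on low intensities. The dimmest probes well above background read 11.2 to 18.3 on DMSO 1, 3 and 4.

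Rapamycin against DMSO is a comparison for which S100g was not picked, although it uses the same DMSO arrays. The S100g mean was 1.1 ± 0.20 (log2, SE) higher over the 8 arrays, 2.14-fold (n = 3 and 3), which missed the threshold (limma adjusted p = 0.109, 95% interval 0.63 to 1.56 before adjustment). Over 12 arrays it was 1.49 ± 0.46 higher (limma adjusted p = 0.847). Within slides the 8 arrays gave 1.51 on the slide of DMSO 1, DMSO 4 and rapamycin 1, and 0.51 on the slide of DMSO 3 and rapamycin 4. It passed on the 8 arrays without rapamycin 4 (1.30, limma adjusted p = 0.0351) and on the 12 with array quality weights (1.22, limma adjusted p = 0.00042). With those weights 2509 of 25579 genes passed in this comparison, where 0 passed without them. The weights ran from 0.02 on rapamycin 3 to 7.16 on PP242 2. In all 36 settings the difference was above 0, between 0.22 and 1.79.

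**Figure D1:**
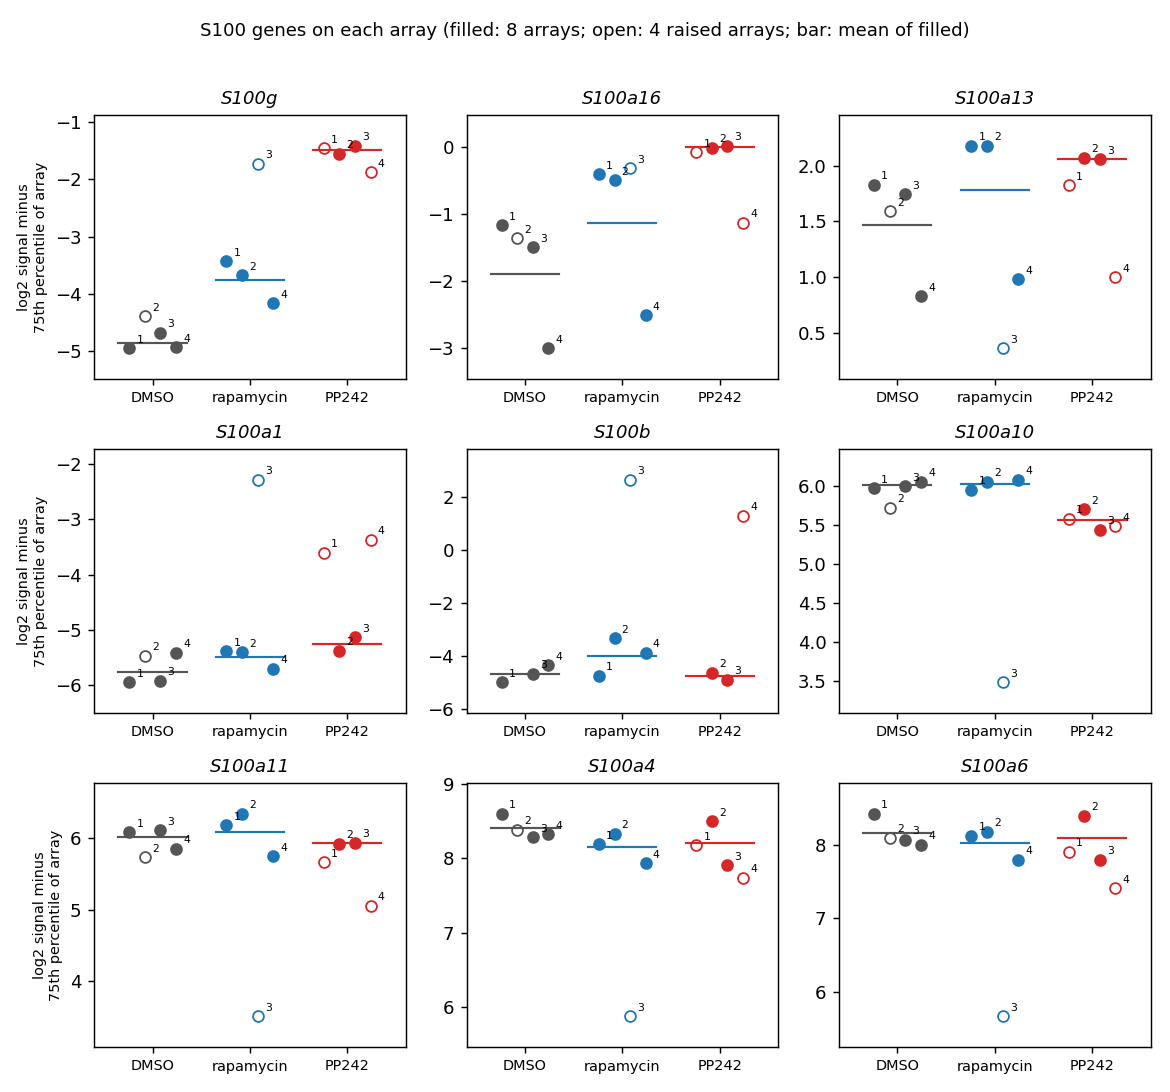
Scaled level (log2 intensity minus the 75th percentile of the array) of the 9 S100 genes on each array, by treatment, with the replicate number beside each point; filled points are the 8 arrays, open points the 4 arrays with raised dim probes, and bars the mean of the filled points. S100g lay between -4.95 and -4.39 in DMSO and between -1.88 and -1.41 in PP242, and S100b stood at 2.66 on rapamycin 3 and 1.30 on PP242 4.

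S100a16, a broadly expressed family member, had the next largest difference of the 9 means on the 8 arrays, with a wide spread. Its scaled levels were -1.17, -1.37, -1.50 and -3.01 on DMSO 1 to 4, -0.41, -0.51, -0.32 and -2.52 on rapamycin 1 to 4, and -0.08, -0.02, 0.02 and -1.14 on PP242 1 to 4. Array 4 was the lowest of each treatment, and all PP242 values lay above all DMSO values. Over the 8 arrays PP242 minus DMSO was 1.90 ± 0.78 (log2, SE), 3.72-fold, and did not pass (limma adjusted p = 0.116, 95% interval 0.04 to 3.75 before adjustment). Rapamycin minus DMSO was 0.75 ± 0.69 (limma adjusted p = 0.712, interval -0.91 to 2.41). The 12 arrays gave 1.46 ± 0.58 and 0.83 ± 0.58. With replicate number as a block on the 8 arrays, chosen after seeing the data, PP242 minus DMSO was 1.36 and passed (limma adjusted p = 0.0142). Among the fits that leave out 1 of the 8 arrays the PP242 difference passed only without rapamycin 4 (limma adjusted p = 0.0425), and over the 12 settings on these arrays it ranged from 1.34 to 2.26.

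S100a13, which takes part in the non-classical release of fibroblast growth factor 1, was also lowest on array 4 in DMSO and PP242. It read 1.83, 1.59, 1.75 and 0.83 on DMSO 1 to 4, 2.18, 2.18, 0.37 and 0.99 on rapamycin 1 to 4, and 1.82, 2.07, 2.06 and 1.00 on PP242 1 to 4. The treatments overlapped on the 12 arrays. PP242 minus DMSO was 0.59 ± 0.45 over the 8 arrays (limma adjusted p = 0.371, interval -0.48 to 1.66) and 0.24 ± 0.46 over the 12.

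S100a1, the family member of heart and skeletal muscle that acts on calcium release and uptake, lay near the detection limit. Its scaled levels were -5.96, -5.47, -5.93 and -5.42 in DMSO, -5.39, -5.41, -2.28 and -5.71 in rapamycin and -3.61, -5.38, -5.13 and -3.37 in PP242, arrays 1 to 4 in turn. The 3 highest values were all on arrays with raised dim probes, and DMSO 3 was not well above background. On the 8 arrays PP242 minus DMSO was 0.51 ± 0.20 (limma adjusted p = 0.107, interval 0.03 to 0.99), and on the 12 it was 1.32 ± 0.76. In RefSeq the S100a1 and S100a13 gene bodies overlap by 98 bases on opposite strands; whether a probe lies there is not given in the files used here.

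S100b, the family member of astrocytes and Schwann cells, was dim on all but a pair of arrays. It read -4.99, -4.67 and -4.35 on DMSO 1, 3 and 4, -4.74, -3.33, 2.66 and -3.87 on rapamycin 1 to 4, and -4.63, -4.89 and 1.30 on PP242 2 to 4. The values of 2.66 and 1.30 came from rapamycin 3 and PP242 4, and the spots on DMSO 2 and PP242 1 were left out as outliers. Over the 8 arrays the differences to DMSO were 0.69 ± 0.36 for rapamycin (limma adjusted p = 0.459) and -0.09 ± 0.40 for PP242 (limma adjusted p = 0.887). Over the 12 arrays, with rapamycin 3 and PP242 4, they were 2.35 ± 2.02 and 1.93 ± 2.16. Of the glial markers Gfap and Olig1 were well above background on 0 of the 8 arrays and Mbp on all 8; their part in the S100b values was not tested.

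S100a10, also called p11, holds annexin A2 in a tetramer at the membrane and has lost the ability to bind calcium. Its scaled levels were 5.98, 5.72, 6.0 and 6.06 on DMSO 1 to 4, 5.95, 6.06, 3.49 and 6.09 on rapamycin 1 to 4, and 5.58, 5.70, 5.44 and 5.49 on PP242 1 to 4. After scaling, all PP242 values lay below all DMSO values, and below the rapamycin values other than that of rapamycin 3. Before scaling, PP242 and DMSO overlapped. On the 8 arrays the intensity was 62004 to 78546 in DMSO, 77401 to 108270 in rapamycin and 53560 to 68885 in PP242, and PP242 4 read 82125. The part of the scaling in the S100a10 differences was not tested. On the 8 arrays S100a10 fell by 0.44 ± 0.11 (log2, SE) in PP242 against DMSO (limma adjusted p = 0.0240) and by 0.46 ± 0.11 against rapamycin (limma adjusted p = 0.0330). The fall against rapamycin passed in 2 of 12 settings on the 8 arrays, that fit and the one without DMSO 4, and the 12 arrays gave 0.16 ± 0.52. Rapamycin minus DMSO was 0.02 ± 0.10 (interval -0.21 to 0.25).

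Among the 12 settings on the 8 arrays the S100a10 fall against DMSO passed in 7. Without DMSO 1, DMSO 3 or PP242 3 it was -0.46, -0.45 and -0.31 and did not pass, nor did it with slide as a block (-0.39) or after quantile normalisation (-0.29). The 12 arrays gave -0.39 ± 0.52 (limma adjusted p = 0.793). Its annexin partner Anxa2 read -0.27 ± 0.12 in PP242 against DMSO on the 8 arrays (limma adjusted p = 0.145).

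S100a11, or calgizzarin, which binds annexin A1, had means that differed little. It read 6.08, 5.74, 6.11 and 5.85 in DMSO, 6.19, 6.35, 3.50 and 5.75 in rapamycin and 5.67, 5.92, 5.94 and 5.06 in PP242, arrays 1 to 4 in turn. The treatments overlapped. PP242 minus DMSO was -0.09 ± 0.19 over the 8 arrays (limma adjusted p = 0.762, interval -0.53 to 0.36) and -0.30 ± 0.56 over the 12, and Anxa1 read 0.17 ± 0.18 (limma adjusted p = 0.535).

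S100a4, which binds non-muscle myosin IIA and marks fibroblasts and motile cells, was among the brightest probes on every array. Its scaled levels were 8.60, 8.39, 8.29 and 8.33 in DMSO, 8.19, 8.33, 5.87 and 7.93 in rapamycin and 8.18, 8.50, 7.90 and 7.74 in PP242, arrays 1 to 4 in turn. The treatments overlapped, with PP242 minus DMSO at -0.20 ± 0.21 over the 8 arrays (limma adjusted p = 0.522, interval -0.71 to 0.31) and -0.32 ± 0.49 over the 12. S100a6, or calcyclin, read 8.42, 8.09, 8.07 and 8.0 in DMSO, 8.12, 8.18, 5.67 and 7.79 in rapamycin and 7.90, 8.39, 7.80 and 7.41 in PP242. Here too the treatments overlapped, with a difference of -0.07 ± 0.23 (limma adjusted p = 0.844, interval -0.61 to 0.47) and -0.27 ± 0.52 over the 12.

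Scaling widened the range of this pair. Before it, the S100a4 intensity ran from 372740 to 389830 over the 8 arrays, 1.05-fold from lowest to highest, while the scaled range was 1.62-fold, as was the range of the arrays' 75th percentiles (984 to 1594). S100a6 ran from 302190 to 364630 before scaling, 1.21-fold, and 1.55-fold after it. The brightest gene probe of each array stood at 460640 to 503420, and 0 spots were marked as saturated. The part of the scaling in the small differences of this pair was not tested.

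**Figure D2:**
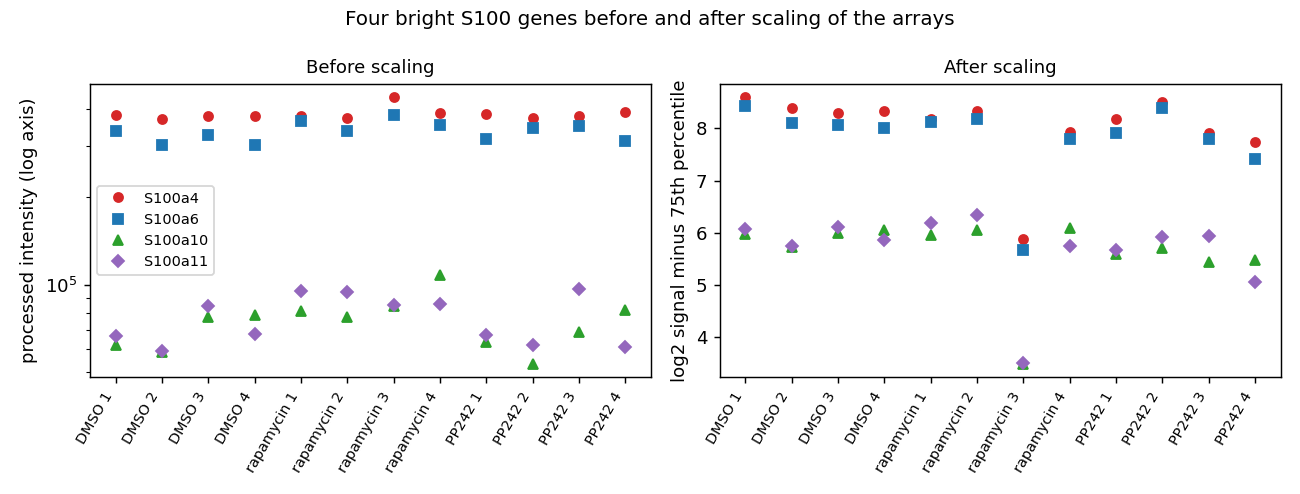
S100a4, S100a6, S100a10 and S100a11 on each array, as processed intensity on a log axis (left) and as scaled level (right); each point is 1 array. S100a4 stayed between 372740 and 389830 on the 8 arrays before scaling, while all 4 genes read low on rapamycin 3 after it (3.49 to 5.87).

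S100g was picked for its PP242 response and is left out of the counts of calls that involve PP242. Of the other 8 genes, 1 passed in PP242 against DMSO on the 8 arrays, S100a10 downward, where 29.5% of 18052 genes passed (14.2% upward and 15.3% downward). S100a10 was also the 1 that passed against rapamycin, where 16.4% of genes did (7.88% upward and 8.51% downward), and these comparisons share the PP242 arrays. In rapamycin against DMSO limma called 0 of the 9 (1 had an unadjusted p under 0.05), where 0.205% of genes passed (0.133% upward and 0.0720% downward). Of the 18052 genes, 2523 had such an unadjusted p there. The median log2 difference of the 9 in PP242 against DMSO was -0.07, beside -0.02 over all genes tested.

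With all 12 arrays limma called 0 of the other 8 in PP242 against DMSO (1, S100a16, had an unadjusted p under 0.05), where 0.344% of 25579 genes passed (0.301% upward and 0.0430% downward). Of the 25579 genes, 2214 had such an unadjusted p there. In rapamycin against DMSO and in PP242 against rapamycin limma called 0% of all genes, of which 451 and 890 had an unadjusted p under 0.05. The medians over all genes on 12 arrays were 0.24 for rapamycin and 0.40 for PP242 against DMSO, so differences there are read against a shifted centre.

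**Figure D3:**
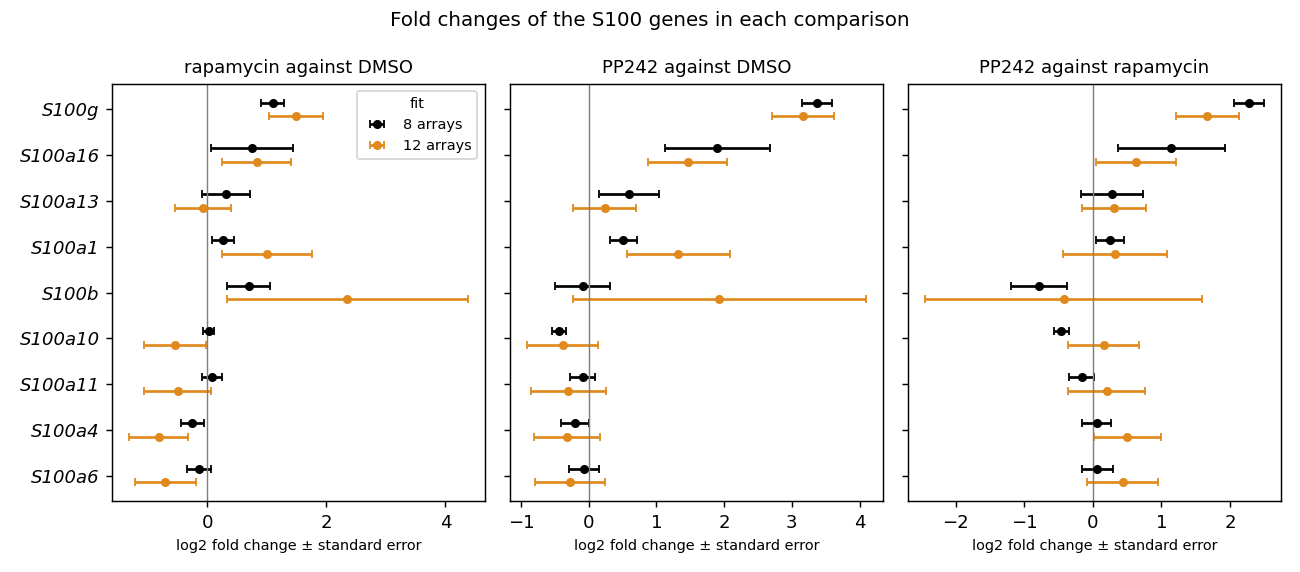
Log2 fold change with its standard error for the 9 S100 genes in the 3 comparisons, from the fit on 8 arrays (black) and on 12 arrays (orange). The S100g points stand at 1.1, 3.37 and 2.27 on the 8 arrays, and the errors of S100b on 12 arrays reach 2.02 to 2.16.

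Of 7 further S100 genes with a probe, 5 were measured on the 8 arrays. S100a3 was called lower in PP242 than in DMSO, where 29.5% of all genes passed. S100a8 is left out of this count and described below with no test. S100a3, a cysteine-rich member known from hair follicles, read -1.27, -1.60, -1.44 and -1.15 in DMSO, -1.31, -1.53, -1.98 and -1.24 in rapamycin and -2.12, -2.09, -2.12 and -1.98 in PP242. PP242 1, 2 and 3 lay below every DMSO and rapamycin value, and PP242 4 was level with rapamycin 3 and below the rest. S100a3 fell by 0.81 ± 0.13 against DMSO (limma adjusted p = 0.00521), passing in 11 of 12 settings on the 8 arrays and not with slide as a block, and by 0.74 against rapamycin (limma adjusted p = 0.0128), passing in 9.

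S100a8, a subunit of calprotectin in neutrophils, was well above background on 4 of the 8 arrays, namely DMSO 1, rapamycin 1, PP242 2 and PP242 3, at -5.82, -5.66, -4.39 and -4.59. It met the filter on dim probes only with both PP242 arrays, where it was high, and 1 of the 3 DMSO arrays measured it. The fitted difference of 2.13 ± 0.61 in PP242 against DMSO is thus against a DMSO mean largely at background, and is given with no test. Of the macrophage and neutrophil markers Csf1r and Mpo were well above background on all 8 arrays, Lyz2 on 5, and Ptprc, Adgre1 and Elane on 1 each. Csf1r fell by 0.37 in PP242 against DMSO (limma adjusted p = 0.0274). All cultures were of the NIH3T3 line, and a link of these markers to the S100a8 values was not tested. S100a5, S100a7a and S100a14 did not pass, at -0.16, 1.39 and 0.27.

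Among 24 genes for S100 binding partners and receptors, 21 were measured on the 8 arrays and 2 were higher and 3 lower in PP242 than in DMSO, with a median of -0.14, where 14.2% of all genes were higher and 15.3% lower. Cacybp, the calcyclin-binding protein that S100a6 contacts, fell by 0.88 ± 0.09 (limma adjusted p = 0.000951). Alcam, an adhesion molecule, fell by 1.38 ± 0.18 (limma adjusted p = 0.00236), and both passed in 12 of 12 settings on the 8 arrays. Trp53, the tumour suppressor whose protein several S100 proteins bind, fell by 1.16 ± 0.20 (limma adjusted p = 0.00694) and did not pass without PP242 3. Anxa6 rose by 0.68 ± 0.12 (limma adjusted p = 0.00618), not passing without PP242 3 or with slide as a block. Sugt1, a co-chaperone that binds S100a6, rose by 0.38 (limma adjusted p = 0.0193) and passed in 7 settings. Of the 3 highest by level that did not pass, Anxa1 read 0.17, Myh9 0.50 and Anxa5 -0.23.

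The measured genes of a list for vitamin D signalling and calcium transport, processes that S100g serves in the gut, showed no call. Of 16 listed, 7 were measured on the 8 arrays and limma called 0, with 1 at an unadjusted p under 0.05 (Rxrb) and a median of 0.33, where 29.5% of all genes passed. Of all 18052 genes, 7338 had an unadjusted p under 0.05 there. The vitamin D receptor Vdr read 0.76 ± 0.46 (limma adjusted p = 0.271), and its partners Rxra and Rxrb -0.10 and 0.45. Of the 14 with a probe, 4 were well above background on none of the 8 arrays: Trpv5, Trpv6, Calb1 and Slc8a3. Cyp24a1, Calb2 and Atp2b2 were so on 1 array each. These genes were not tested on the 8 arrays.

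Of 35 other EF-hand genes measured on the 8 arrays, 6 were higher and 7 lower in PP242 than in DMSO, with a median of 0.09, where 14.2% of all genes were higher and 15.3% lower. Calml4, a calmodulin-like gene, rose by 1.13 ± 0.13 (limma adjusted p = 0.00146) and Cetn2, a centrin of the centriole, fell by 0.61 ± 0.08 (limma adjusted p = 0.00289). Both passed in 12 of 12 settings on the 8 arrays. Pef1, a penta-EF-hand protein, rose by 0.71 (limma adjusted p = 0.00733; not without PP242 2 or with slide as a block), and Tnnc1, cardiac troponin C, rose by 1.38 (limma adjusted p = 0.00924; among fits without 1 array, not without PP242 2 or PP242 3). Of those at the highest level that did not pass, Sparc read 0.23, Rcn3 0.09 and Ehd1 -0.23. In rapamycin against DMSO on the 8 arrays limma called 0 genes in each of these 4 lists. Unadjusted p was under 0.05 for 0 of 5 other S100 genes and 2 of 21 partners. It was so for 0 of 7 vitamin D and calcium genes and 3 of 35 EF-hand genes. Over all genes, 2523 of 18052 had such a p there. On 12 arrays limma called 0 genes of these lists in each comparison. The lists, in the same order, held 7, 24, 11 and 43 measured genes there. In PP242 against DMSO 2, 3, 1 and 3 of them had an unadjusted p under 0.05, beside 2214 of all 25579 genes. In PP242 against rapamycin 1, 2, 0 and 1 had, beside 890, and in rapamycin against DMSO 0, 0, 0 and 1 had, beside 451.

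**Figure D4:**
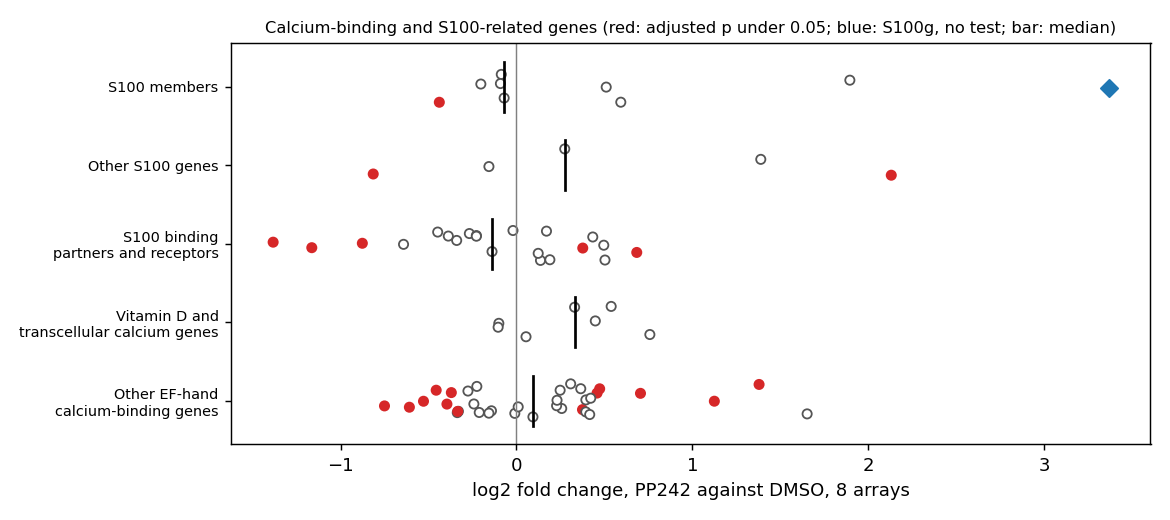
Log2 fold change of PP242 against DMSO on the 8 arrays for the 9 S100 genes, other S100 genes, S100 partners and receptors, vitamin D and calcium transport genes and other EF-hand genes; 1 point is 1 gene, red points passed, the blue diamond is S100g and black bars are medians. The medians run from -0.14 to 0.33, and S100g at 3.37 has the largest value plotted. S100a8, red at 2.13, met the filter on dim probes only with both PP242 arrays.

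The genes whose scaled levels ran most like those of S100g over the 12 arrays were Ccdc17, Inca1, Acacb, Acad10 and Calcoco1. Their Pearson correlations with S100g were 0.987, 0.985, 0.985, 0.978 and 0.976 over 12 arrays, and 0.989, 0.992, 0.977, 0.994 and 0.988 over the 8. These are descriptions over arrays that share treatments, slides and scaling. The genes were picked as the highest over the 12 arrays, which include the 8, so the values over the 8 are no separate check. The order of the means below is part of that choice. Inca1 ran from a mean of -5.29 in DMSO through -4.23 in rapamycin to -2.24 in PP242 on the 8 arrays, and Acacb, the mitochondrial acetyl-CoA carboxylase, from -3.42 through -3.00 to -0.78.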

How the data were processed

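Each of the 12 arrays is 1 one-colour Agilent scanner file with 45018 spots for 41174 probes. The processed signal is a linear intensity, background-subtracted within the array by Agilent Feature Extraction, per the file headers (version 10.5.1.1; the submitters' processing notes name 10.1). The deposited value table holds log2 values with column medians of 8.54 to 8.56 that rank probes as the median spot intensity does (Spearman correlation at least 0.99998). Which tool made it was not given in the sources used here.

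Control spots and outlier spots (1.52% of gene spot values) were left out, spots of a probe were averaged, and log2 intensities were taken relative to the array's 75th percentile. Probes well above background on at least 4 arrays were kept, each gene by its brightest probe. Limma 3.58.1 in R 4.3.3 (lmFit, eBayes) was fitted on all genes, 3 groups together, two-sided, with Benjamini-Hochberg adjustment and a threshold of 0.05. Single adjusted p-values are from limma. Intervals are 95% and moderated.

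The genes and lists, and the fit on 8 arrays (75th percentile over 100 times the 25th), were chosen with earlier results of these data known. All 9 genes were named; from each list up to 4 genes by adjusted p and up to 3 not passing, by level. Alternatives were other scalings, backgrounds, filters, blocks by slide or replicate number, array weights and leaving out each array. Figures were drawn in matplotlib 3.10.9 and tables handled with pandas 2.3.3 and numpy 2.4.6 under Python 3.11.15. The self-test used simulated arrays.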

Additional observations from a re-analysis of the deposited data

Results flagged for a closer look

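In 6 of 25 groups of 4 values 1 array stood apart from the other 3 by Dixon's criterion, where chance gives about 1 in 20 groups. Of these, 4 fell on rapamycin 3: S100a1 was highest at -2.28, and S100a4 at 5.87, S100a6 at 5.67 and S100a10 at 3.49 were lowest. This array had the highest share of probes well above background, 97.9%. Its 75th percentile, used for scaling, was 7538, against 984 to 1832 on the others. Before scaling, S100a4 (441320) and S100a6 (382530) read highest there of the 12 arrays, and S100a10 (84535) lay within the range of the others. The part of this array and of its scaling in these values was not tested. S100a16 was lowest at -2.52 on rapamycin 4 and at -1.14 on PP242 4.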

How the results depend on the processing

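Over 12 arrays limma called 88 genes in PP242 against DMSO and 0 of the other 8 S100 genes. S100g, which was chosen for its PP242 response, is left out of the S100 counts below that involve PP242. The genes called numbered 36 after quantile normalisation, 0 with median centring, 34 with normexp, 2 with no filter on dim probes, 322 with all 12 arrays well above background and 1717 with only the 2 groups compared. They numbered 5333 on the 8 arrays, 1923 there with slide as a block, 5199 there after quantile normalisation, 0 with slide as a block on 12 arrays and 9140 with array quality weights. The calls split 77 higher to 11 lower on 12 arrays, 22 to 14 after quantile normalisation, 63 to 45 on the deposited table and 2571 to 2762 on the 8 arrays, and the median over all genes moved from 0.40 to 0.02 after quantile normalisation and -0.46 with median centring. Leaving out 1 array gave 0 to 3134 of 12 (most without rapamycin 3) and 2137 to 6299 of the 8. Of the other 8 S100 genes 0 were called after quantile normalisation, with median centring, on the deposited log2 table or with no filter. Slide as a block on 12 arrays gave 0 as well. The 8 arrays gave S100a10, and array quality weights gave S100a1, S100a10 and S100a16. Leaving out 1 of the 12 arrays gave 0. Leaving out 1 DMSO or rapamycin array of the 8, S100a10 passed without DMSO 4 or any 1 rapamycin array. S100a1 passed there without DMSO 4 and S100a16 without rapamycin 4.

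In PP242 against rapamycin 0 genes were called on 12 arrays, 1 on the deposited table, 2959 on the 8 arrays, 774 there with slide as a block, 2949 there after quantile normalisation and 7212 with array quality weights. Leaving out 1 array gave 0 to 1040 of 12 and 660 to 3779 of 8. Of the other 8 S100 genes S100a10 passed on the 8 arrays and there without DMSO 4, and S100a10 and S100a11 with array quality weights. The fit on 12 arrays gave 0 of them, as did the 8 with slide as a block or after quantile normalisation. Leaving out 1 of the 12 arrays gave 0 as well. In rapamycin against DMSO 0 genes were called on 12 arrays, 37 on the 8, 0 there with slide as a block, 0 there with the replicate block, 26 there after quantile normalisation and 2509 with array quality weights; leaving out 1 array gave 0 to 110. Of the S100 genes, S100g included, 0 were called, 1 with array quality weights and 0 to 1 leaving out 1 array.

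Whether replicate numbers pair the arrays was not settled. The deviations of same-numbered arrays correlated between -0.90 and 0.79 over 12 pairs (different numbers -0.88 to 0.91). Arrays with raised dim probes take part in those pairs, so they cannot decide it. On the 8 arrays same-numbered arrays correlated between -0.32 and 0.75 over 4 pairs, with a median of 0.40 against -0.05 for different numbers. These 4 pairs are too few to decide it. With the replicate block 0 genes and 0 S100 genes were called on 12 arrays in PP242 against DMSO (S100g at 3.16). On the 8 arrays the replicate block gave 5033 genes in PP242 against DMSO and 2291 against rapamycin. Beside S100g, which is left out, the S100 genes called there were S100a10 and S100a16 against DMSO and 0 against rapamycin.

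Among single genes, S100a6 in rapamycin against DMSO turned to 0.076 after quantile normalisation, 0.076 on the deposited table and 0.083 on the 8 arrays after quantile normalisation. S100a13 turned to 0.71 in rapamycin against DMSO on the 8 arrays without rapamycin 4, and to -0.66 in PP242 against DMSO with median centring. S100a4 in PP242 against rapamycin turned to -0.25 on the 8 arrays without PP242 2 (up to 0.75 leaving out 1 array). S100a10 in PP242 against rapamycin turned to -0.46 on the 8 arrays, -0.46 there without DMSO 4, -0.59 without PP242 2 (up to 0.39 leaving out 1 array) and -0.38 with array quality weights; S100a11 turned to -0.32 with those weights. The cause was not tested. S100g kept its direction in all 36 settings of each comparison. S100a16 in PP242 against DMSO passed with the replicate block on the 8 arrays (1.36, limma adjusted p = 0.0142), where Tnnc1 did not pass, and with array quality weights (1.45, limma adjusted p = 0.00327). The fit on 8 arrays has 2 PP242 arrays; leaving out 1 leaves a lone sample assumed to vary like the other groups. Dim probes such as S100a1 lie near background. The replicate block and the quantile normalisation on the 8 arrays were chosen after seeing the data.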

Other observations

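Of the genes next to the S100 genes in RefSeq's order, 17 were measured on the 8 arrays. In PP242 against DMSO limma called 4 higher and 3 lower, where 29.5% of all genes passed. On the 12 arrays it called 0 higher and 0 lower of 24, with 2 at an unadjusted p under 0.05. Over all genes, 2214 of 25579 had such a p on the 12 arrays. The genes called on the 8 arrays were, beside S100g, Syap1 and Txlng, which rose by 0.43 and 0.87, and Rbbp7, which fell by 0.61. Beside S100a1, S100a13, S100a4, S100a6 and S100a16, Snapin rose by 1.15 and Ilf2 fell by 0.81. Prmt2, next to S100b, rose by 0.84, and Pcnt fell by 0.87. They were chosen by position and not by value.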
